A study of Caenorhabditis elegans with 2 samples.

Results

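The 8 genes cct-1 to cct-8 encode the subunits of the chaperonin CCT, and they were taken as listed by name, out of 19973 protein-coding genes on the nuclear chromosomes of Caenorhabditis elegans. They were examined for binding of the zinc finger transcription factor LSY-2, located by chromatin immunoprecipitation and sequencing in whole L1 larvae that had hatched after bleaching and were kept without food. All worms were of strain OP367, which carries the mutation unc-119(tm4063) and the transgene wgIs367, the source of eGFP-tagged LSY-2, and larvae of both sexes were pooled. The labels give lsy-2 as the target of the antibody and do not state the promoter that drives the transgene. There were 2 biological replicates in 1 group and no second genotype, treatment or stage, so LSY-2 binding is described here along the genome and not between conditions. Both replicates carry the transgene and the unc-119 mutation, and whole larvae do not show in which cells the factor was bound. Peak lists hold no expression values, so the labelled stage and tissue could not be checked against marker genes.

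CCT, also called TRiC, is a cage of a pair of stacked rings in the cytosol, each ring built from 1 copy of each of the 8 subunits. It takes up unfolded proteins and releases them folded as ATP is hydrolysed, and actin and tubulin are its best known clients. Prefoldin, a smaller chaperone, hands newly made actin and tubulin over to it. The subunits are paralogs of each other, and the names run in the order alpha (cct-1), beta (cct-2), gamma (cct-3), delta (cct-4), epsilon (cct-5), zeta (cct-6), eta (cct-7) and theta (cct-8).

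The sequences around the LSY-2 summits at these genes are shown first, because 2 words and paired heat shock units recur in them. Each line covers 100 bases on both sides of the summit of the thresholded peak, from the WBcel235 genome (ce11 in the peak lists), read on the strand of the CCT gene and 5′ to 3′ towards it, and that of cct-6 stops at the 5′ end of its neighbour alh-9. Capitals mark GGGTCTC, also as its reverse complement GAGACCC, then the word ACGCGC, and the paired heat shock units TTCNNGAA and GAANNTTC.
cct-1 (chrII:8185111-8185311, plus strand): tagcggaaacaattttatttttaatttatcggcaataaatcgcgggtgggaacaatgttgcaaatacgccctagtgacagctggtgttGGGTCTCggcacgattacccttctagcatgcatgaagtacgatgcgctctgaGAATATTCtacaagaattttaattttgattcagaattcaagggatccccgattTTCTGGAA
cct-2 (chrII:8927339-8927539, plus strand): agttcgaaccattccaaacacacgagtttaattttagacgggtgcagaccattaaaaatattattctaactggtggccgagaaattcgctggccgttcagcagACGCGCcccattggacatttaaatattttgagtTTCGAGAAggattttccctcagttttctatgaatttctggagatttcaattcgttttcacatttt
cct-3 (chrII:2232535-2232735, plus strand): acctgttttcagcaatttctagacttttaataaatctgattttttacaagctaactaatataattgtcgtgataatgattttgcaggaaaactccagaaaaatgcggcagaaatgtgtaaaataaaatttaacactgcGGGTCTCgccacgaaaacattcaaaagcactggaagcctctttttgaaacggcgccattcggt
cct-4 (chrII:8283344-8283544, plus strand): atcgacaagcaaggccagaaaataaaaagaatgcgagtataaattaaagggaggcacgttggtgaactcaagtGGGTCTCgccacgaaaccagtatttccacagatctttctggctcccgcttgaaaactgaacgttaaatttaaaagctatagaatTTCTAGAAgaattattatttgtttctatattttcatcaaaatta
cct-5 (chrIII:4508477-4508677, minus strand): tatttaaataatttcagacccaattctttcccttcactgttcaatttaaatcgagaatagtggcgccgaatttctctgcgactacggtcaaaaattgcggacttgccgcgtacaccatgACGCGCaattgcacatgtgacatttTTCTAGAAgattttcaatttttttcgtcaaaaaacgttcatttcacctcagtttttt
cct-6 (chrIII:5855875-5856017, minus strand): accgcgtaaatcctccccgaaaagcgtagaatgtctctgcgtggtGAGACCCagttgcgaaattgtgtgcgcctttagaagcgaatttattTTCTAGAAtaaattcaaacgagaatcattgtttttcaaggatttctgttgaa
cct-7 (chrV:1871879-1872079, plus strand): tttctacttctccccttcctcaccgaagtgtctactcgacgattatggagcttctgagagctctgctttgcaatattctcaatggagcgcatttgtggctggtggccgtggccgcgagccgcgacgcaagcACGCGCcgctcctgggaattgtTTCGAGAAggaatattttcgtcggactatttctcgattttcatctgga
cct-8 (chrIV:1094261-1094461, minus strand): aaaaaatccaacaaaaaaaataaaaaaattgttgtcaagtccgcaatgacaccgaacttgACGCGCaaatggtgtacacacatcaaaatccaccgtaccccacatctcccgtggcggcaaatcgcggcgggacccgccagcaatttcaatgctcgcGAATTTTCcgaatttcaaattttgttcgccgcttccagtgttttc

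All 8 CCT genes had a thresholded LSY-2 summit in the promoter window, which ran from 1000 bp upstream to 200 bp downstream of the 5′ end of the gene. Among all protein-coding genes, 21.1% had one. With each summit given only to the gene with the nearest 5′ end, 2 of the 8 had one, against 16% of all protein-coding genes. The peaks were unequal in strength. By the authors' signal value, cct-8 and cct-1 stood far above the rest, cct-5, cct-6, cct-7 and cct-3 lay between, and cct-2 and cct-4 were weakest. The median over the 8 genes was 948, against 283 over the 4216 protein-coding genes with a promoter summit and 169 over all 6850 thresholded peaks. The strongest CCT peak exceeded the weakest 59.8-fold. The genes were listed with earlier results of these data known, so no test was made of this median or of the count.

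At cct-8 (WBGene00021934), the theta subunit gene on chromosome IV, the peak spanned 1094102 to 1094635 and its summit lay 441 bp upstream of the 5′ end at 1093920. Its signal was 15540, with 7556 in replicate 1 and 8017 in replicate 2, and it was number 8 of the 6850 thresholded peaks. At cct-1 (WBGene00000377), the alpha subunit gene on chromosome II, the peak spanned 8184954 to 8185468, with its summit 232 bp upstream of the 5′ end at 8185443. Its signal was 14134, with 7225 in replicate 1 and 6940 in replicate 2, and it was number 11. These were 2 of the 22 thresholded peaks with a signal of at least 10000. The difference between them, 1.10-fold, was on the log2 scale smaller than the SD of the ratio between replicates at peaks of such signal. cct-8 was the higher in both replicates, and cct-1 exceeded the next member, cct-5, 9.85-fold.

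The middle of the order held 4 subunits. cct-5 (WBGene00000380), for epsilon, had a signal of 1435, with 787 in replicate 1 and 654 in replicate 2, and its peak on chromosome III spanned 4508387 to 4508774. cct-6 (WBGene00000381), for zeta, had 1097, with 583 in replicate 1 and 513 in replicate 2, from a peak on the same chromosome between 5855810 and 5856137. These peaks were numbers 258 and 341 in the thresholded list. cct-7 (WBGene00020391), for eta, had 798, with 402 in replicate 1 and 390 in replicate 2, and its peak on chromosome V spanned 1871813 to 1872127. cct-3 (WBGene00018782), for gamma, had 656, with 308 in replicate 1 and 319 in replicate 2, and its peak on chromosome II spanned 2232542 to 2232828. On the log2 scale, cct-5 exceeded cct-6 by 0.39, cct-6 exceeded cct-7 by 0.46 and cct-7 exceeded cct-3 by 0.28, each in the same direction in both replicates. The log2 replicate ratio had an SD of 0.26 over all peaks with a signal between 1000 and 2000 and of 0.33 between 400 and 1000. The first 2 steps were larger than these values and the step between cct-7 and cct-3 was not larger than 0.33. That SD describes the same peak in different replicates and is not the error of a step between peaks.

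The weakest peaks were at cct-2 and cct-4. cct-2 (WBGene00000378), for beta, had a signal of 302, with 156 in replicate 1 and 144 in replicate 2, and its peak on chromosome II spanned 8927336 to 8927554. cct-4 (WBGene00000379), for delta, had 260, with 157 in replicate 1 and 109 in replicate 2, and its peak on the same chromosome spanned 8283334 to 8283538. cct-4 was a little above cct-2 in replicate 1 and below it in replicate 2, so the replicates do not order this pair. Even so, both lay above the median signal of all thresholded peaks, and cct-4 was number 2294 of the list. Among the genes with a promoter summit, 53.3% had a signal at least as high as that of cct-4.

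**Figure D1:**
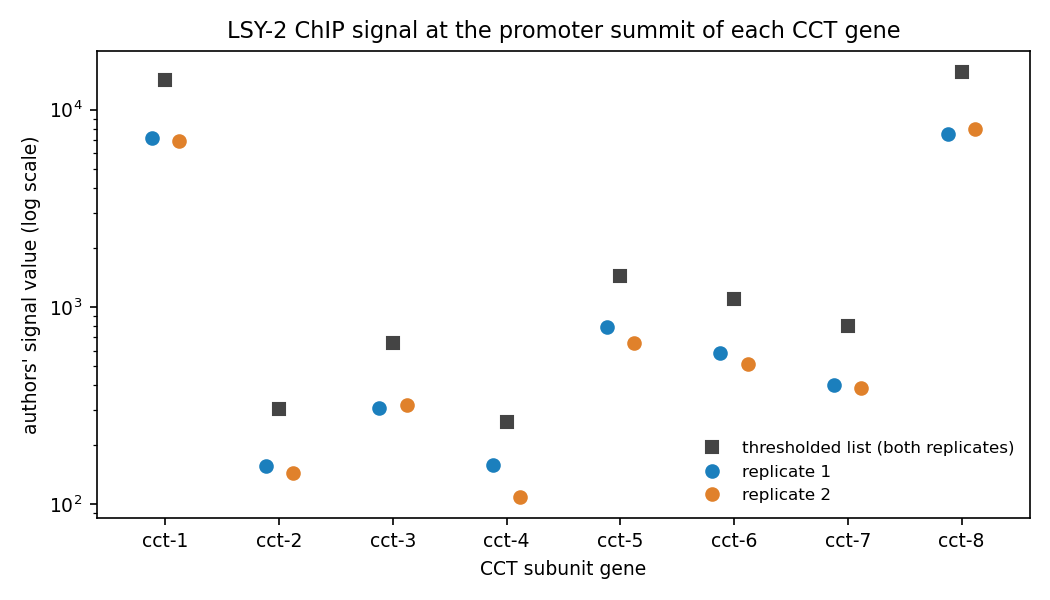
The authors' signal value (vertical axis, log scale) at the promoter summit of each CCT gene, with 1 point for each replicate list and a square for the thresholded list made from both. The points of cct-1 and cct-8 lie between 6940 and 8017, those of the other genes between 109 and 787, and each square lies near the sum of both points.

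The CCT peaks were present in both replicate lists. A region of each replicate's list was matched to a thresholded summit when its own summit lay within 100 bp, which was possible at 6616 peaks, or 96.6%. Over these peaks, the log2 ratio of signal in replicate 2 to that in replicate 1 had its median at 0.20, with an SD of 0.52. At the CCT genes the ratio ran from −0.53 at cct-4 to 0.09 at cct-8, and all 8 values were below that median. Replicate 2 was below replicate 1 at 6 of the 8 genes, and the share of all matched peaks in that order was not computed. The median ratio was 0.06 over the 22 peaks with a signal of at least 10000, with an SD of 0.19, and 0.20 over the 1538 between 200 and 400, with an SD of 0.40. It was 0.12 between 400 and 1000 and 0.13 between 1000 and 2000. Beside the median for peaks of like signal, cct-8 was above and the other CCT genes were below. Of the CCT genes, cct-4 had the lowest ratio and is also the weakest peak. At each CCT gene the thresholded signal was 0.975 to 1.05 times the sum of the replicate signals, and over all matched peaks the median of this quotient was 1.00.

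The replicates placed each CCT summit within 20 bp of each other. Between the replicates, the summit moved by 0 bp at cct-8, by 1 bp at cct-6 and cct-7, by 2 bp at cct-1, by 4 bp at cct-3, by 9 bp at cct-5, by 12 bp at cct-2 and by 20 bp at cct-4. The median over all matched peaks was 16 bp, with quartiles of 6 and 36 bp. The median was 2.5 bp among peaks with a signal of at least 10000 and 13 bp among those between 200 and 400. Each promoter window of a CCT gene held exactly 1 region of the pooled list, which includes background, where 78.3% of all genes with a promoter summit had exactly 1. No weaker region stood beside the listed peak in these windows, though at cct-2 a pooled region of signal 18.2 lay 1005 bp upstream, just outside.

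**Figure D2:**
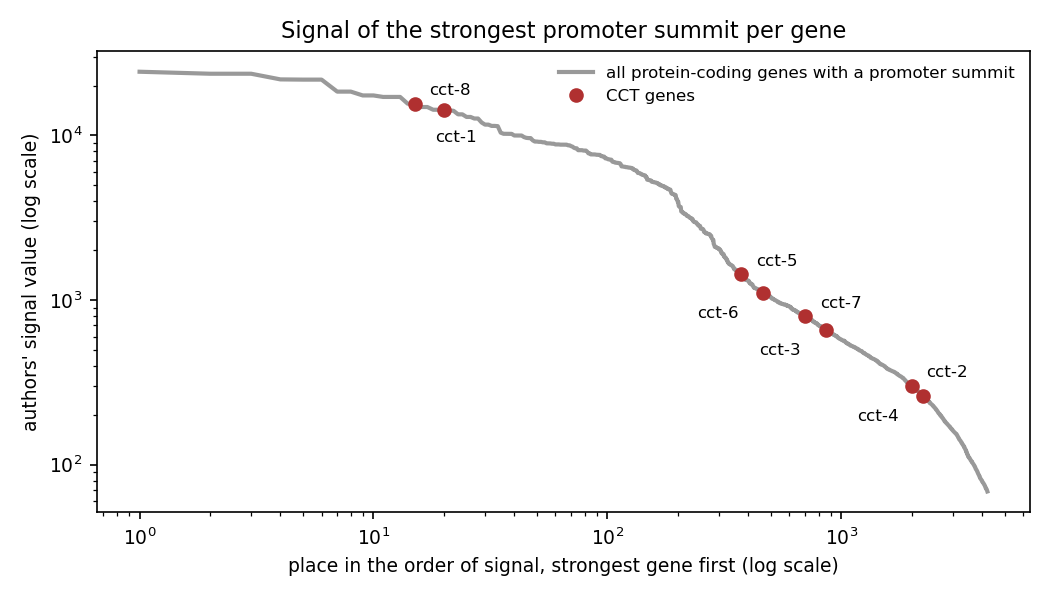
Signal of the strongest thresholded promoter summit (vertical axis, log scale) for all 4216 protein-coding genes that have one, in order from the strongest (horizontal axis, log scale), with the CCT genes marked. cct-8 and cct-1 were in places 15 and 20, cct-5, cct-6, cct-7 and cct-3 between places 374 and 859, and cct-2 and cct-4 in places 2000 and 2246.

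Every CCT summit lay between a pair of genes that face away from each other. The gene next upstream of each CCT gene was on the opposite strand, with its 5′ end 331 to 1190 bp away, and the summit was in its promoter window too. Such a divergent neighbour with the 5′ ends at most 1200 bp apart was found at 8 of 8 CCT genes, 42.1% of all genes with a promoter summit and 19.8% of all protein-coding genes. Of the 3947 protein-coding genes with such a neighbour, 1773 had a promoter summit. The limit of 1200 bp lies just above the largest distance at a CCT gene, 1190 bp. With no limit on the distance, the gene next upstream was divergent at 8 of 8 CCT genes. It was so at 63% of the genes with a promoter summit and 45.4% of all protein-coding genes. All 8 CCT genes shared their summit with another gene, against 47.8% of the genes with a promoter summit. All 8 summits were intergenic in the annotation, and a position between the 5′ ends of such a pair is outside both genes. The share of intergenic summits over the whole list was not computed. Peak lists do not say which gene of a pair, if either, responds to a shared peak.

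At 6 of the 8 genes the summit was nearer to the 5′ end of the partner than to that of the CCT gene. At any shared summit either the gene or its partner is the nearer. The share over all shared summits was not computed, so this count is not read as a trait of CCT genes. The cct-1 summit was 188 bp from mig-5, a Dishevelled gene of Wnt signalling, and 232 bp from cct-1. The cct-8 summit was 180 bp from Y55F3AR.2, which RefSeq describes as a thioredoxin domain protein, and 441 bp from cct-8. At cct-6 it was 43 bp from alh-9, a putative aldehyde dehydrogenase gene, and 288 bp from cct-6. The peak interval of cct-6 reached into alh-9, that of cct-8 into Y55F3AR.2, and that of cct-1 into both mig-5 and cct-1.

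The cct-5 summit was 278 bp from F25F2.1, described by RefSeq as a protein kinase domain protein, and 463 bp from cct-5. The cct-7 summit was 172 bp from T10B5.4, described as an aralkylamine N-acetyltransferase, and 267 bp from cct-7. The cct-3 summit was 165 bp from F54A3.6, a gene with a Periphilin-1-like product, and 905 bp from cct-3. It was the only CCT summit more than 500 bp from its gene. The cct-2 summit was nearer to its own gene, 302 bp against 888 bp from B0457.2, described as a glycine-rich protein.

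At cct-4 the summit lay almost midway to nst-1, which encodes a GTPase related to nucleostemin, a nucleolar protein. It was 223 bp from cct-4 and 236 bp from nst-1 in the thresholded list and in replicate 2, and 243 bp from cct-4 and 216 bp from nst-1 in replicate 1, so the nearer gene differed between the replicates. With each summit given only to the gene with the nearest 5′ end, cct-2 and cct-4 were the CCT genes that had one, 2 of 8, against 16% of all protein-coding genes. The median signal of these 2 was 281, against 252 over all genes with a summit by that rule.

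**Figure D3:**
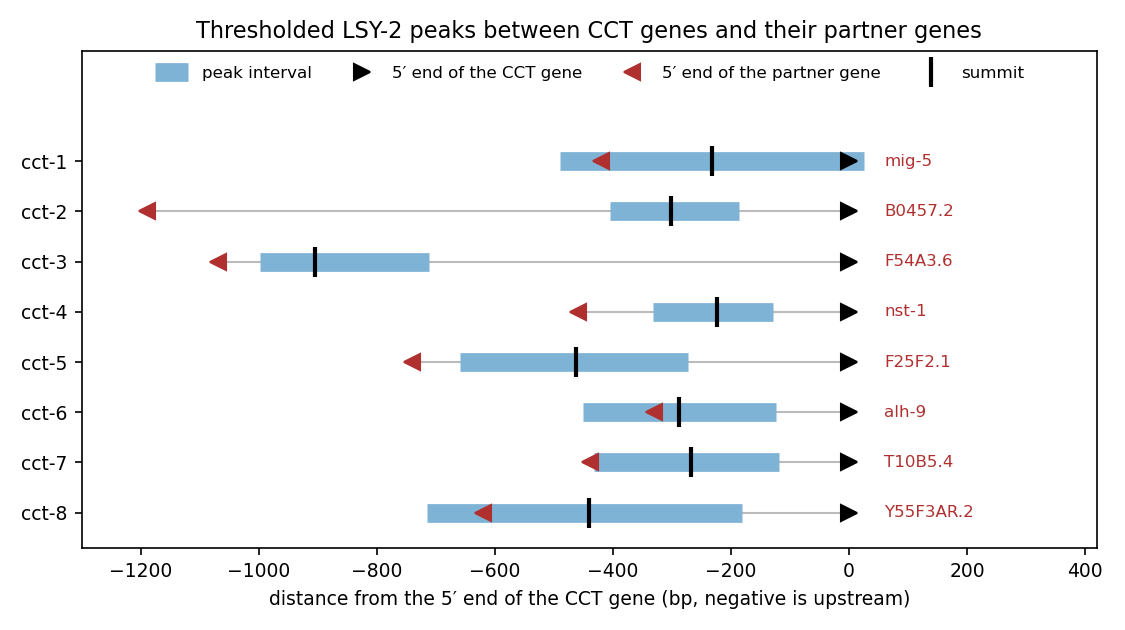
Peak intervals (bars) and summits (ticks) of the thresholded list at each CCT gene, on an axis of distance in bp from the 5′ end of the CCT gene, with the 5′ end of the partner gene, named at the right, as a red triangle. Every summit lies between both 5′ ends, at 25.4% of the way from the CCT gene to its partner at cct-2 and at 87.0% at cct-6.

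Further annotation around these peaks was mixed. The cct-7 summit was 1 bp before the start of T10B5.13, an unclassified non-coding RNA gene of 96 bp in the same orientation as cct-7, and Y55F3AR.4, one of 123 bp, lay 152 bp from the cct-8 summit. The annotation holds 7764 genes of that class, and 314 thresholded summits, 4.58%, lay within 50 bp of the 5′ end of one. Downstream, 5 of the 8 CCT genes were followed on the same strand by another gene under 300 bp away, against 12.5% of all protein-coding genes. These were mrpl-50 at 25 bp from cct-2, csn-4 at 94 bp from cct-8, F54A3.2 at 102 bp from cct-3, atf-7 at 142 bp from cct-5 and ddx-23 at 260 bp from cct-6, and they were named, like the non-coding genes, after their values were seen. Genes so close on a strand can belong to an operon in this species, and operons were not analysed here.

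Within the gene bodies, LSY-2 summits were found in cct-5 and cct-3. cct-5, of 8927 bp, held 4 thresholded summits in introns, with signals of 458, 203, 121 and 78.7, and 1 of 70.5 in non-coding exon sequence near its 3′ end, which lay 338 bp upstream of atf-7. The strongest, at 4504535 on chromosome III and 3579 bp into the gene, had 229 in replicate 1 and 236 in replicate 2. It was stronger than the promoter peaks of cct-2 and cct-4. cct-3, of 10000 bp, held 1 intronic summit with a signal of 87.6. A summit of the same signal, 87.6, lay just past the 3′ end of cct-6 and 179 bp upstream of ddx-23, which encodes an RNA helicase. cct-1, cct-2, cct-4, cct-7 and cct-8 had no thresholded summit from 1000 bp upstream of the 5′ end to 500 bp past the gene, other than the promoter summit.

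No word of 6 bases was common to most of the windows of 101 bp around the summits. Such words, counted with their reverse complements, were ranked by how many CCT windows held them, and 7 were in 4 of the 8 windows and none in more. Overlapping words of that list make up GGGTCTC, which was at cct-1, cct-3, cct-4 and cct-6, and ACGCGC was at cct-2, cct-5, cct-7 and cct-8. No CCT window held both. Of the other words in 4 windows, CGCCAC was found at cct-3, cct-4, cct-5 and cct-8. The windows that held CGTGGC were those of cct-3, cct-4, cct-7 and cct-8. AGAATA was at cct-1, cct-2, cct-5 and cct-7, while AATTTC was at cct-2, cct-5, cct-6 and cct-8. These words cut across the split of the genes by the first pair of words, so that split rests on the words chosen. Of all summits, 4.26% held the word CGCCAC and 5.33% held the word CGTGGC. The word AGAATA was held by 6.35%, and the word AATTTC was held by 13.4%. Over all thresholded summits, 3.11% held GGGTCTC and 9.8% ACGCGC, and among the 392 of signal 1000 or more 14% and 18.4% did. In windows of the same length centred 500 bp from the summits, the shares were 0.905% and 1.32%. All of these words were picked from the CCT sequences after they were seen, so their counts are a description without a test.

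In cct-3 and cct-4 the shared word was part of a longer run of 13 identical bases, GGGTCTCGCCACG, the longest that any pair of the 8 windows shared on either strand. In cct-5 and cct-8 the run TGACGCGCAA of 10 bases was shared, and no other pair shared more than 10. Runs of the same length without ACGCGC were shared by cct-1 and cct-7, by cct-2 and cct-5, and by cct-2 and cct-7. GGGTCTC was centred 9 bp before the summit at cct-1, 24 bp before it at cct-4, 6 bp after it at cct-6 and 41 bp after it at cct-3, counted towards the CCT gene. ACGCGC lay from 37.5 bp before the summit, at cct-8, to 33.5 bp after it, at cct-7. The strongest pair of peaks, cct-8 and cct-1, held different words, and so did the weakest pair, cct-2 and cct-4.

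At the CCT genes that held paired heat shock units within 100 bp of the summit, these lay on the CCT side. Heat shock factor binds inverted repeats of GAA, and the paired units TTCNNGAA and GAANNTTC were among 10 motifs searched on both strands. Each reads the same on both strands, and matches of the pair can overlap. In the windows of 201 bp TTCNNGAA was found at 6 of the 8 genes, against 7.91% of all thresholded summits, and GAANNTTC at 2, cct-1 and cct-8, against 8.96%. One or the other was at every CCT gene but cct-3, 7 of 8, against 15.5% of all summits and 25.3% of windows centred 500 bp away. The matches were TTCTAGAA at cct-4, cct-5 and cct-6, TTCGAGAA at cct-2 and cct-7, GAATTTTC at cct-8, and TTCTGGAA with GAATATTC at cct-1. Their centres lay 39.5 to 60.5 bp from the summit towards the CCT gene, except that TTCTGGAA at cct-1 was at 96.5 bp. The share of such matches on the gene side over all summits was not computed, so the side is not read as a trait of CCT genes.

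Most of these matches fell outside the narrower windows of 101 bp, where only cct-1 and cct-2 had one, against 6.04% of all summits. In the 300 bases before the 5′ end, whatever the LSY-2 signal, TTCNNGAA was present at 6 of the 8 CCT genes and at 18.0% of all protein-coding genes. GAANNTTC was present there at 5 of the 8, cct-1, cct-3, cct-5, cct-7 and cct-8, and at 19% of all protein-coding genes. In the windows of 101 bp the GATA word TGATAA was at cct-3 alone, against 7.17% of all summits. The other 7 motifs were in no CCT window of that length. In the windows of 201 bp TTTCAG was at cct-3 and cct-5, 2 of 8, against 17.6% of all summits. The GATA word was at 1 of 8, cct-3, against 14.5% of all summits. The TATA word was at 1 of 8, cct-4, against 13.4%, and TTTTTTTT at 1 of 8, cct-8, against 15.5%. The E-box, the E2F word, the GC box and GAGAGA were in no CCT window of 201 bp. Of all summits, 7.34%, 2.16%, 8.86% and 42.1% held them at that length, in the same order. In the windows of 101 bp, 4.63% of all thresholded summits held the E-box CACGTG, 1.34% the E2F word TTTCGCGC, 5.24% the GC box CCGCCC and 28.1% the repeat GAGAGA. The TATA word TATAAA was at 5.21%, the run TTTTTTTT at 5.96% and TTTCAG, which resembles a splice acceptor, at 6.38%. The GC content of the CCT windows ran from 36.6% at cct-3 to 60.4% at cct-7, with a median of 46.5%, against a median of 43.6% over all summits. A match of letters does not show a bound site, and occupancy by heat shock factor was not analysed here.

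**Figure D4:**
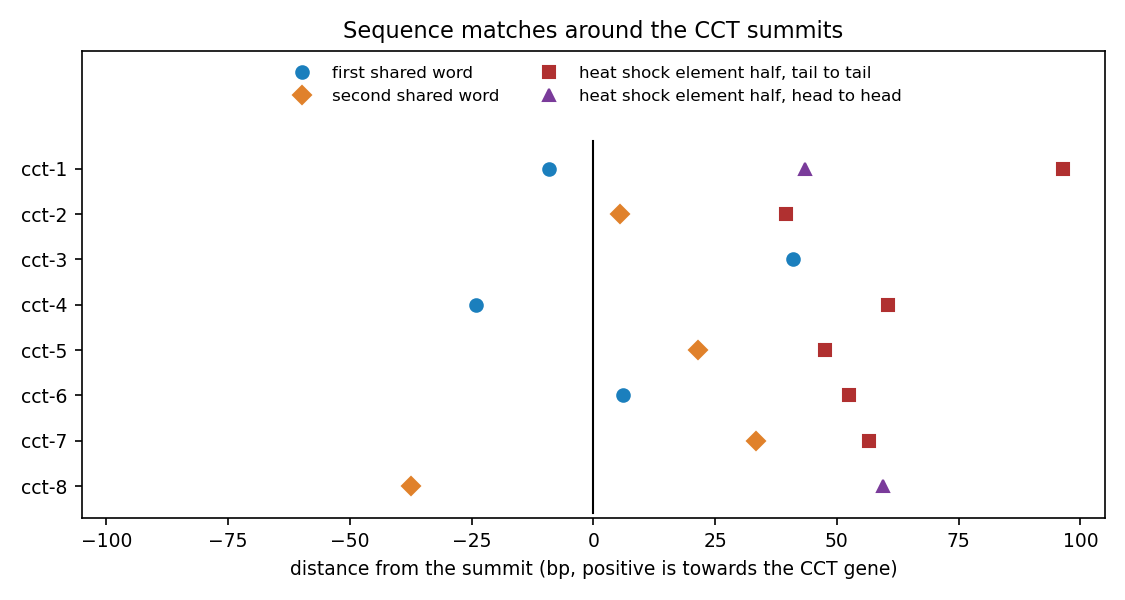
Centres of sequence matches within 100 bp of each CCT summit (horizontal axis, bp from the summit, positive towards the CCT gene), with GGGTCTC as the first shared word, ACGCGC as the second, TTCNNGAA as the tail-to-tail and GAANNTTC as the head-to-head heat shock unit pair. The words scatter from −37.5 to 41 bp around the summit, and all heat shock unit pairs shown lie on the side of the CCT gene. The share on that side over all summits was not computed.

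In 5 other lists of the folding pathway, from 1 of 4 to 5 of 6 genes had a promoter summit. The share among all protein-coding genes was 21.1%. Prefoldin genes had a promoter summit in 5 of 6 cases, with a median signal of 549. pfd-1 was strongest at 6148, with 3185 in replicate 1 and 2989 in replicate 2, at a summit shared with F01G4.6 and nearer to that gene. pfd-6 followed at 727, and pfd-2 had none. Actin genes, which encode a main client, had 4 of 5 with a median of 204, led by act-4 at 349 and act-2 at 327, and act-5 had none. These values of act-4 and act-2 were between those of cct-2 and cct-3. The other actin signals, 81.3 and 79.5, were near the lowest of the thresholded list, 68.8, and the weakest had no matched replicate values.

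Tubulin genes had a promoter summit in 6 of 16 cases, or 37.5%, with a median signal of 300.3. tba-2, for an alpha tubulin, had 1338, with 632 in replicate 1 and 711 in replicate 2, and tbb-1, for a beta tubulin, had 473. mec-12 and mec-7, for the tubulins of touch receptor neurons, had none. Of 4 genes for WD repeat proteins that are CCT clients in other organisms, gpb-2, for a G protein beta subunit, had one, at 307, and lst-8, the fifth name of that list, matched no gene name in the annotation used and was not counted. fzr-1 and fzy-1, for activators of the anaphase-promoting complex, had none. The list of other chaperone genes also holds hsf-1, which encodes heat shock factor and not a chaperone. In this list 3 of 5 genes had a promoter summit. hsp-60, for the mitochondrial chaperonin, had 2309 and hsp-110 had 2073, each at a shared summit. hsp-90 and hsf-1 had none. No test was made between these lists, which hold few genes each.

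**Figure D5:**
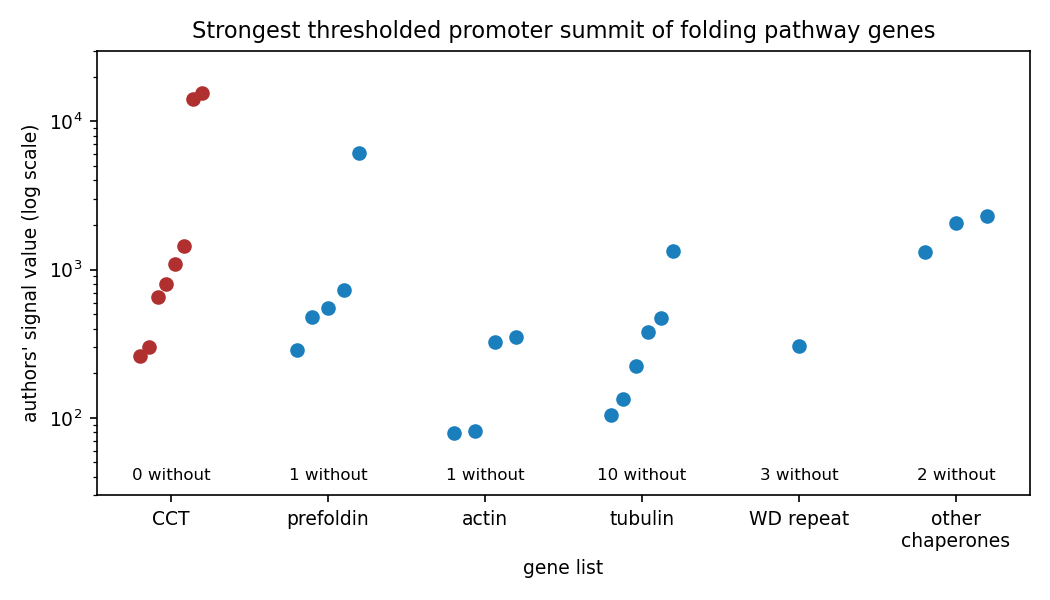
Signal of the strongest thresholded promoter summit (vertical axis, log scale) for each gene of the CCT list and of 5 lists of the folding pathway (horizontal axis), with the number of genes without one below each list. The CCT points run from 260 to 15540, the actin points from 79.5 to 349. The list of other chaperones also holds hsf-1, for heat shock factor.

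By level alone, the peaks most like the strongest and the weakest CCT peak were at genes of other kinds. Next above cct-8 in the thresholded list, with 17066, was the peak at elof-1, lin-7 and Y54G11A.17. Next below it, with 14822, was that at syx-5, a syntaxin gene, and F55A11.1. The peak of hpo-11, with 259.8, was next above cct-4, and a peak of 259.5 in no promoter window was next below it. Likeness here is the difference in signal within 1 list, and with a single condition it says nothing about how the genes vary.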

How the data were processed

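Peak lists in the ce11 build were used as deposited, from 2 replicates and from both together. The README files deposited by the authors state that the lists of single replicates and of the pool hold peaks plus background, derived from alignments and a control. They hold 30000 regions each, and the thresholded list of 6850 peaks comes from an irreproducible discovery rate analysis of those 3 lists. Fragments were 150 to 350 bp long, per the labels. The authors' signal value per region is not on a stated scale and is larger in the pooled list. The deposited −log10 q was 4.19 at every thresholded peak and did not rank them. No source used here gives the aligner, the peak caller or the read depth, and no counting error is given.

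Coordinates are 1-based. Genes and 5′ ends came from Ensembl release 115 (WBcel235, the assembly of ce11), and sequence and product names from RefSeq. The ce10 lists were not used. Assignment and motif search were tested on planted summits and words. The members, lists and motifs were chosen with earlier results of these data known. Outside the CCT genes, the text names partner genes, up to 2 genes of each list with the strongest summit and up to 2 with none in alphabetical order, and the neighbours in signal of the strongest and weakest member, besides genes next downstream. No statistical test was made, since there is 1 group of 2 replicates. Python 3.11.15 with pandas 2.3.3 was used.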

Additional observations from a re-analysis of the deposited data

How the results depend on the processing

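The count of CCT genes with a thresholded promoter summit was 8 with a window of 2000 bp upstream and 500 bp downstream, with any overlap of the peak interval, with the 3425 strongest peaks, with the pooled list, with the 5′ end of any protein-coding transcript, and with the 6850 strongest regions of replicate 1 or of replicate 2 alone. It was 7 with 500 bp upstream and 100 bp downstream, without cct-3. With the nearest 5′ end only it was 2, with a median signal of 281 in place of 948, because the other 6 summits are nearer to the partner gene. Under the other settings that use the thresholded or the pooled list the median ran from 948 to 1097, and no median was set beside these for the lists of single replicates, whose signal is on another scale. Of all protein-coding genes, 14.6% to 37.7% had a summit under the settings that kept 8. The number of motif matches over the 10 motifs and 8 genes was 3 in windows of 101 bp and 13 in windows of 201 bp. No paired analysis was possible because there is 1 group. Read depth is unknown, and peaks weaker than the thresholds of the lists are not seen.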
